A study of Homo sapiens with 21 samples.

Results

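CHAC1 and 9 genes of glutathione metabolism and of the NRF2 antioxidant programme were followed in cells under endoplasmic reticulum stress. The members were taken by name (CHAC1, GCLC, GCLM, GSS, GSR, GPX4, TXNRD1, SRXN1, HMOX1 and NQO1), each matched to a single Ensembl gene, which gave 10 genes of the 60671 in the deposited table. All 10 passed the filter on low counts, which kept 14012 genes, though HMOX1 did so through its HEK293T and tunicamycin libraries. Polyadenylated RNA of 21 samples was sequenced in 7 groups of 3. OCI-AML3 cells, a human acute myeloid leukaemia line, were untreated at 0 h, or received DMSO, the solvent, for 4 h or 24 h, or tunicamycin at 1 μg/mL for 4 h or 24 h. HEK293T cells, a human embryonic kidney line that grows attached, received DMSO or the same dose of tunicamycin for 24 h, and no HEK293T sample at 4 h was analysed here. OCI-AML3 cells were kept in RPMI and HEK293T cells in DMEM, so line and medium cannot be told apart. Each line stands for a single cell culture model, and the labels do not say whether replicates were separate cultures, so p-values measure only the spread between these samples.

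Libraries held 13838480 to 19961819 counts, and a count of 0 would allow a level of up to 3 counts, 0.150 to 0.217 in counts-per-million (CPM) of the library total. Levels below are CPM after TMM scaling, which corrects for differences in composition between libraries. Replicate 1 of OCI-AML3 DMSO 4 h and replicate 3 of OCI-AML3 tunicamycin 24 h stood apart from their groups, with a chi-square per gene of 15.5 to 22.5 against the other replicates where every other pair of replicates gave 10.1 or less. For the 10 genes, the value without these libraries is given too where leaving them out changed a call or a direction. The same was done where it moved a called value by over 1.5 times. Genes outside the 10 were not examined singly without these libraries. The summed level of 7 blood and myeloid genes was 1775 to 2365 CPM in the OCI-AML3 libraries and 3.03 to 7.23 CPM in HEK293T, although MPO, a myeloid granule enzyme, reached only 0.980 to 1.66 CPM in OCI-AML3. The summed level of 7 epithelial or kidney-type genes was 284 to 312 CPM in HEK293T and 4.02 to 7.78 CPM in OCI-AML3, and CTNNA2, one of the 7, was at 0 in every HEK293T library.

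Glutathione is the abundant thiol tripeptide that buffers the redox state of the cytosol. Glutamate-cysteine ligase (GCLC and GCLM) and glutathione synthetase (GSS) make it, peroxidases such as GPX4 spend it, glutathione reductase (GSR) regenerates it, and CHAC1 cleaves it in the cytosol. NRF2, a transcription factor held low by KEAP1, drives many of the making and recycling enzymes together with TXNRD1, SRXN1, HMOX1 and NQO1 through the antioxidant response element (ARE). Tunicamycin blocks N-linked glycosylation, so unfolded glycoproteins build up in the endoplasmic reticulum, and the kinase PERK then raises translation of ATF4, for which CHAC1 is a known target. NRF2 is itself a known substrate of PERK.

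The 10 genes did not move together. In OCI-AML3 cells at 4 h, 3 of the 10 rose (CHAC1, HMOX1 and GCLM) and 2 fell (SRXN1 and TXNRD1), where 18.5% and 18.9% of all tested genes rose and fell (edgeR, adjusted p at most 0.05). At 24 h, 4 of the 10 rose (CHAC1, HMOX1, GCLC and GCLM) and 4 fell (GPX4, GSS, SRXN1 and TXNRD1), against 23.5% and 27.7% of all tested genes. That balance over all genes turned without TMM, with 4005 higher and 3196 lower at 24 h against 3286 and 3877. In HEK293T cells at 24 h, 2 of the 10 rose (CHAC1 and GCLC) and 3 fell (NQO1, GSR and SRXN1), against 12.6% and 13.1%. These shares depended on the fit. With only the groups compared, 2927 genes rose and 2856 fell in HEK293T cells against 1771 and 1835, and 2 and 3 of the 10 did. Changes that were also larger than 1 on the log2 scale were limited to CHAC1 and HMOX1 in OCI-AML3 cells at both times, where 4.92% of all tested genes passed both thresholds at 4 h and 6.32% at 24 h, and to CHAC1 in HEK293T cells, where 2.13% did. The median log2 fold change over the 10 was -0.03 at 4 h, 0.01 at 24 h and -0.07 in HEK293T cells, against -0.02, -0.01 and -0.01 over all tested genes. Of the 10, only CHAC1 rose in all 3 comparisons and only SRXN1 fell in all 3. The fall of TXNRD1 at 24 h was lost in 18 of 31 alternative analyses and that of SRXN1 at 24 h in 7, so 2 of the 4 falls at 24 h, GSS and GPX4, passed the test in every alternative. GCLM at 4 h was lost in 4, NQO1 in HEK293T cells in 3, among them limma voom, and GCLC in HEK293T cells in 6.

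**Figure D1:**
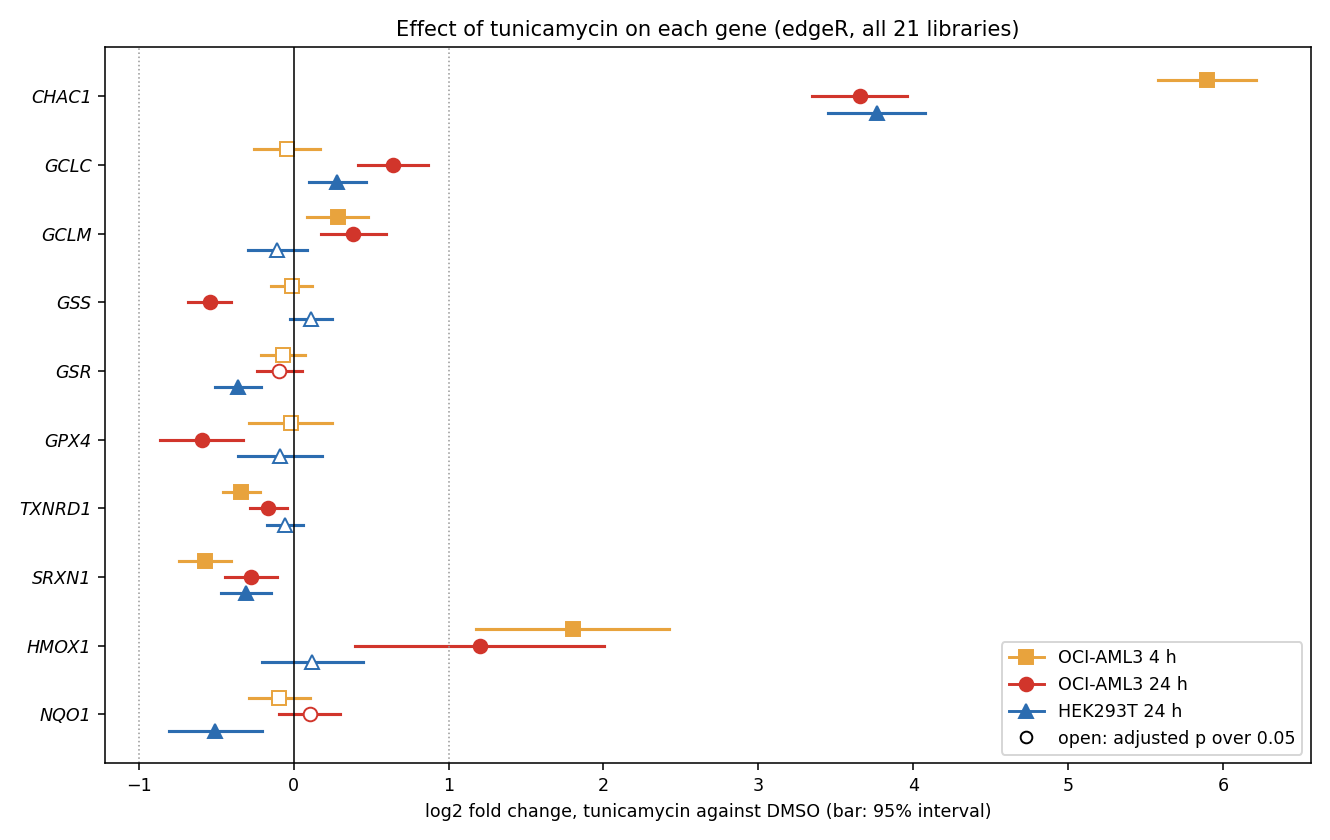
Log2 fold change of tunicamycin against DMSO (horizontal axis) for the 10 genes in OCI-AML3 cells at 4 h (squares) and 24 h (circles) and in HEK293T cells at 24 h (triangles), with the 95% interval from the standard error; open symbols have an adjusted p over 0.05 and dotted lines mark a log2 fold change of 1 in either direction. CHAC1 lies at 3.65 to 5.90 in the 3 comparisons, and apart from HMOX1 in OCI-AML3 cells every other gene lies between -0.59 and 0.64.

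CHAC1 (ENSG00000128965, chr15:40952962-40956512, plus strand, GRCh38 with GENCODE 44) encodes the γ-glutamylcyclotransferase that breaks glutathione down under stress. It stood at 3.92, 4.22 and 2.96 CPM in untreated OCI-AML3 cells and at 3.26, 2.69 and 1.83 CPM after 4 h of DMSO. After 4 h of tunicamycin it stood at 149, 159.7 and 150.2 CPM, far above every control library. After 24 h it stood at 3.01, 4.13 and 5.01 CPM with DMSO and at 55.7, 55.1 and 42.1 CPM with tunicamycin. In HEK293T cells at 24 h it went from 2.36, 3.21 and 2.38 CPM to 36.0, 35.5 and 36.1 CPM. Treated and control libraries did not overlap in any of the 3 comparisons. The log2 fold change was 5.90 ± 0.16 (SE, n = 3 per group, adjusted p = 4.5e-18) at 4 h, a rise of 59.5-fold, and 3.65 ± 0.16 (adjusted p = 2.3e-14) at 24 h, a rise of 12.6-fold. In HEK293T cells it was 3.76 ± 0.16 (adjusted p = 2.2e-14), or 13.6-fold. Ranked by log2 fold change among the 14012 genes tested, CHAC1 was number 4 at 4 h, number 18 at 24 h and number 8 in HEK293T cells. The effect at 24 h was smaller than at 4 h by 2.24 ± 0.25 on the log2 scale (interaction term, adjusted p = 7.3e-07). The effects in the lines at 24 h differed by 0.11, with a 95% interval from -0.36 to 0.58 (adjusted p = 0.79), and by -0.06 (adjusted p = 0.90) without the libraries that stood apart.

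A CEBP-ATF composite element, the kind of site ATF4 and its partners are known to bind, was searched for on both strands as the letters TGATGNAA in the promoter windows of RefSeq (GRCh38.p14, 250 bases before to 50 bases after each start site). Of the 10 genes, 7 had such a window, and GSS, GSR and HMOX1 were not among them. CHAC1 alone of the 7 held a match, and 4.46% of all genes with a window held it in at least 1 of theirs (3.62% of all windows). It is shown because CHAC1 was the gene that moved most, reads 5′ to 3′ on the gene's strand with the matched letters in capitals (they lie on the opposite strand, at chr15:40953262-40953269, starting 209 bases before the start site), and falls within the leader exon of a longer annotated CHAC1 transcript:
CHAC1: ccctgccgTTGCATCActcctgcc
A match is a description of the letters in the window.

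The genes of both subunits of glutamate-cysteine ligase rose in OCI-AML3 cells at 24 h, and in HEK293T cells the catalytic one alone did. GCLC (ENSG00000001084, chr6:53497341-53616970, minus strand), the catalytic subunit, stood at 16.6, 17.5 and 18.1 CPM after 4 h of DMSO and at 17.1, 16.4 and 17.4 CPM after 4 h of tunicamycin, which overlap, with a log2 fold change of -0.04 ± 0.11 (adjusted p = 0.79). After 24 h it stood at 10.8, 10.8 and 10.7 CPM with DMSO and at 15.6, 16.1 and 18.6 CPM with tunicamycin, so that every treated library was higher. It rose by 0.64 ± 0.12 on the log2 scale (adjusted p = 8.1e-05), more than at 4 h by 0.69 ± 0.16 (interaction term, adjusted p = 0.0019). In HEK293T cells GCLC went from 49.2, 44.3 and 50.2 CPM to 58.9, 58.6 and 57.5 CPM, without overlap, a rise of 0.28 ± 0.09 on the log2 scale (adjusted p = 0.028). That rise lost significance without replicate 2 of HEK293T DMSO (adjusted p = 0.12) or without any one replicate of HEK293T tunicamycin (0.060 to 0.077).

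GCLM (ENSG00000023909, chr1:93885199-93909456, minus strand), the modifier subunit that raises the ligase's activity, stood at 36.1, 36.1 and 38.6 CPM with DMSO and 42.7, 41.8 and 50.7 CPM with tunicamycin at 4 h. It rose by 0.28 ± 0.10 on the log2 scale (adjusted p = 0.030), and without replicate 3 of OCI-AML3 tunicamycin 4 h the value was 0.19 (adjusted p = 0.19), and without replicate 2 of OCI-AML3 DMSO 4 h the adjusted p was 0.083. The call was also lost without TMM (adjusted p = 0.060) and without a filter (0.076). At 24 h it went from 23.0, 21.9 and 19.4 CPM to 25.7, 28.7 and 29.7 CPM, a rise of 0.39 ± 0.11 (adjusted p = 0.0051). In HEK293T cells GCLM stood at 51.8, 50.1 and 52.8 CPM with DMSO and 48.8, 46.0 and 49.1 CPM with tunicamycin. There the treated libraries were the lower ones, at -0.10 ± 0.10 (adjusted p = 0.48), and the difference from OCI-AML3 cells at 24 h was -0.49 ± 0.15 (interaction term, adjusted p = 0.016). Over the 15 OCI-AML3 libraries the log2 levels of GCLC and GCLM had a Pearson correlation of 0.82, while that of CHAC1 was 0.24 with GCLC and 0.21 with GCLM. These libraries share groups and scaling.

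The core of the ARE was searched for as TGACNNNGC, both strands, in the same windows. GCLM and TXNRD1 held it, 2 of the 7 genes with a window, and 16.1% of all genes with a window held it in at least 1 of theirs (13.3% of all windows). The matches are shown because these are genes known to answer to NRF2 and because their levels moved in different directions at 4 h. Each line reads 5′ to 3′ on the gene's strand with the match in capitals. The GCLM match lies on the opposite strand at chr1:93909456-93909464, starting 34 bases before the start site. TXNRD1 held matches at chr12:104215680-104215688 (same strand) and chr12:104215771-104215779 (opposite strand), starting 99 and 8 bases before an upstream start site, and at chr12:104286930-104286938 (opposite strand), 102 bases before a downstream start site:
GCLM: cgatttctGCTTAGTCAttgtcttc
TXNRD1 upstream start, first match: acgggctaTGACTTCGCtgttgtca
TXNRD1 upstream start, second match: gtccttcgGCTCCGTCAgttcccac
TXNRD1 downstream start: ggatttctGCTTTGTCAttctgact
GCLC, SRXN1, NQO1, GPX4 and CHAC1 had no match to these letters in their windows, which says only that these letters are not there.

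GSS (ENSG00000100983, chr20:34928432-34956027, minus strand) adds glycine to finish the tripeptide. At 4 h it stood at 97.5, 83.6 and 81.5 CPM with DMSO and 86.2, 87.9 and 86.2 CPM with tunicamycin, which overlap (log2 fold change -0.01 ± 0.07, adjusted p = 0.91). The highest of these values belonged to the DMSO replicate that stood apart, and without the libraries that stood apart the log2 fold change was 0.09. At 24 h GSS went from 76.5, 77.9 and 77.5 CPM to 54.4, 55.0 and 50.1 CPM, every treated library lower, and fell by 0.54 ± 0.07 on the log2 scale (adjusted p = 1.4e-06). In HEK293T cells it stood at 53.6, 51.4 and 56.1 CPM with DMSO and 60.5, 59.2 and 54.2 CPM with tunicamycin, a log2 fold change of 0.11 ± 0.07 (adjusted p = 0.26). The effect at 24 h differed from that at 4 h by -0.53 ± 0.10 (adjusted p = 2.5e-04) and from that in HEK293T cells by 0.65 ± 0.10 (HEK293T minus OCI-AML3, adjusted p = 4.3e-05). In OCI-AML3 cells at 24 h the gene of the first step of glutathione synthesis, GCLC, was thus higher and that of the second step, GSS, lower in every tunicamycin library than in any DMSO library.

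**Figure D2:**
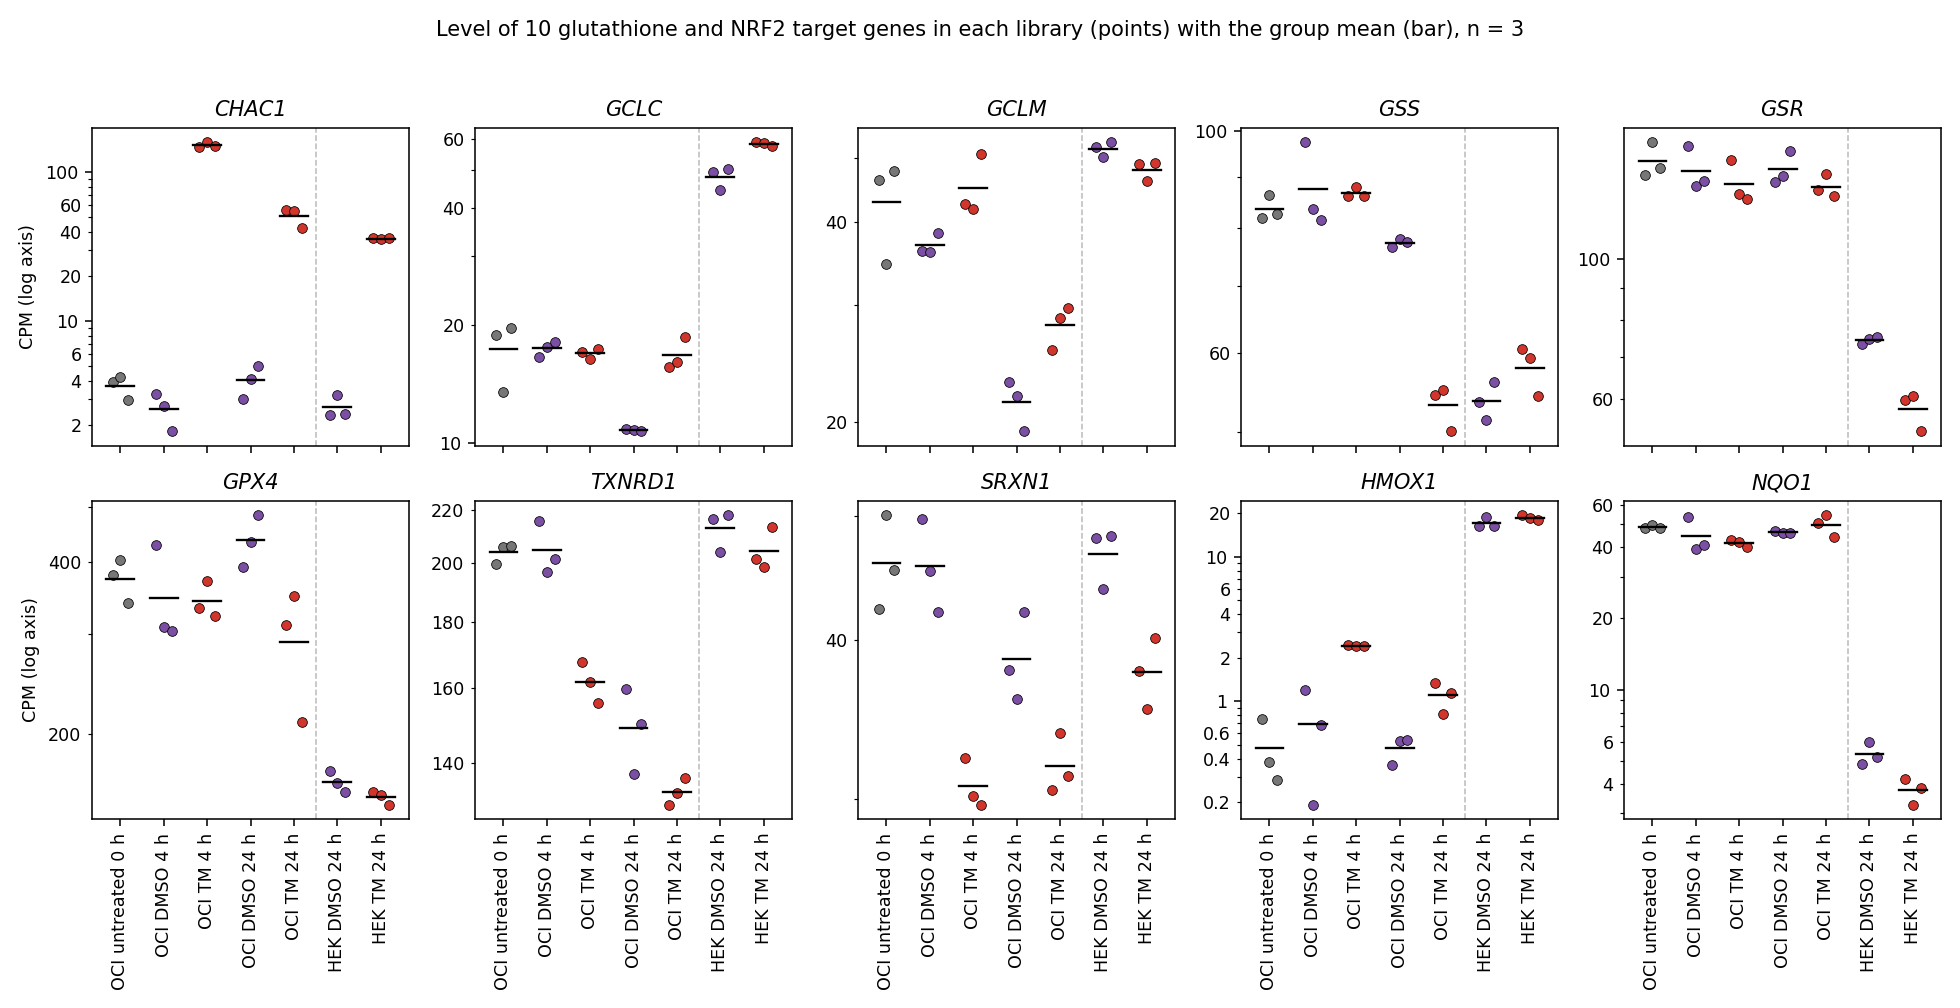
Level of each of the 10 genes in CPM (vertical log axes, each panel on its own scale) in the 21 libraries; points are libraries, grey untreated, purple DMSO and red tunicamycin (TM), bars are group means (n = 3), and the dashed line parts OCI-AML3 from HEK293T. The CHAC1 points of tunicamycin lie at 35.5 CPM or more, against 5.01 CPM or less in the controls, and HMOX1 lies at 2.43 CPM or less in OCI-AML3 and at 16.3 CPM or more in HEK293T.

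GSR, glutathione reductase (ENSG00000104687), spends NADPH to turn oxidised glutathione back. In OCI-AML3 cells it lay at 151, 130.5 and 133 CPM with DMSO and 144, 127 and 125 CPM with tunicamycin at 4 h, and at 133, 135 and 149 CPM and 129, 137 and 126 CPM at 24 h. These overlap, with log2 fold changes of -0.07 ± 0.07 (95% interval -0.21 to 0.08, adjusted p = 0.50) and -0.09 ± 0.07 (-0.24 to 0.05, adjusted p = 0.32). In HEK293T cells GSR went from 73.5, 74.8 and 75.3 CPM to 59.9, 60.7 and 53.4 CPM without overlap and fell by 0.36 ± 0.08 on the log2 scale (adjusted p = 0.0011). The difference between the lines was -0.27 ± 0.11 (adjusted p = 0.063), and it passed the test in 13 of 31 alternatives (adjusted p down to 0.0057, and 0.019 without the libraries that stood apart). GSR at 4 h was 0.015 without those libraries (adjusted p = 0.90).

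GPX4 (ENSG00000167468, chr19:1103982-1106791, plus strand), the selenoenzyme that reduces lipid peroxides and guards against ferroptosis, had the highest level per length of the 10 in every group. At 4 h it stood at 429, 308 and 303 CPM with DMSO and 333, 371 and 323 CPM with tunicamycin, a log2 fold change of -0.02 ± 0.14 (adjusted p = 0.93). The value of 429 CPM came from the DMSO replicate that stood apart, and without both libraries that stood apart the log2 fold change was 0.18, which did not pass the test. After 24 h it went from 393, 435 and 483 CPM to 310.2, 349 and 211 CPM and fell by 0.59 ± 0.14 (adjusted p = 0.0011), the lowest value being that of the tunicamycin replicate that stood apart. Without these 2 libraries it fell by 0.37 on the log2 scale (adjusted p = 0.0012). In HEK293T cells GPX4 stood at 173, 164 and 158 CPM with DMSO and 159, 157 and 151 CPM with tunicamycin (log2 fold change -0.09 ± 0.14, adjusted p = 0.70). The effect at 24 h differed from that at 4 h by -0.57 ± 0.19 (adjusted p = 0.025), and that difference lost significance in 7 alternatives, among them the removal of replicate 3 of OCI-AML3 tunicamycin 24 h (-0.36, adjusted p = 0.091). GPX4 held the letters TGACGT, the core of the cAMP response element, in 2 overlapping windows that share a single site and not in the remaining one, and 9.64% of genes with a window held these letters in any of their windows on either strand.

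TXNRD1 and SRXN1 serve the thioredoxin side of thiol metabolism, which runs beside glutathione. TXNRD1 (ENSG00000198431, chr12:104215779-104350307, plus strand), cytosolic thioredoxin reductase, stood at 216, 197 and 201 CPM with DMSO and 168, 162 and 156 CPM with tunicamycin at 4 h. Every treated library was lower, and the gene fell by 0.34 ± 0.06 on the log2 scale (adjusted p = 1.0e-04). At 24 h it stood at 159.9, 137 and 150.1 CPM with DMSO and at 129.99, 133 and 136 CPM with tunicamycin, where it fell by 0.16 ± 0.06 (adjusted p = 0.028), the call that most alternatives lost (-0.064 with an adjusted p of 0.44 without replicate 1 of OCI-AML3 DMSO 24 h, and an adjusted p of 0.068 without the libraries that stood apart). In HEK293T cells it stood at 216, 204 and 218 CPM with DMSO and at 201, 199 and 213 CPM with the drug. The change there measured -0.06 ± 0.06 on the log2 scale (95% interval -0.17 to 0.06, adjusted p = 0.53).

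SRXN1 (ENSG00000271303, chr20:646615-653200, minus strand), sulfiredoxin, repairs overoxidised peroxiredoxins. At 4 h it stood at 49.7, 45.2 and 42.1 CPM with DMSO and 32.3, 30.2 and 29.7 CPM with tunicamycin, without overlap, and fell by 0.57 ± 0.09 on the log2 scale (adjusted p = 1.3e-05). After 24 h it went from 37.9, 35.9 and 42.0 CPM to 30.5, 33.8 and 31.3 CPM and fell by 0.28 ± 0.09 (adjusted p = 0.011), a call lost without replicate 3 of OCI-AML3 DMSO 24 h (-0.16, adjusted p = 0.16) and without the libraries that stood apart (0.058). In HEK293T cells it went from 48.1, 43.9 and 48.2 CPM to 37.8, 35.3 and 40.1 CPM and fell by 0.31 ± 0.08 (adjusted p = 0.0080), with an adjusted p of 0.053 without replicate 2 of HEK293T tunicamycin. Another annotated gene on the same strand shares exon bases with SRXN1 and was at 0 CPM in every library. Over the 15 OCI-AML3 libraries the log2 level of SRXN1 had a Pearson correlation of -0.86 with CHAC1 and 0.79 with TXNRD1.

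HMOX1 rose with tunicamycin in OCI-AML3 cells, and NQO1 fell in HEK293T cells. HMOX1 (ENSG00000100292, chr22:35380361-35394214, plus strand), which splits heme into biliverdin, iron and carbon monoxide, was close to the limit of detection in OCI-AML3 cells. It had 18, 3 and 12 counts after 4 h of DMSO (1.196, 0.192 and 0.687 CPM) and 38, 41 and 33 counts after 4 h of tunicamycin (2.43, 2.41 and 2.40 CPM). It rose by 1.80 ± 0.32 on the log2 scale (adjusted p = 9.5e-05), or 3.49-fold. The size of this rise depended on single DMSO libraries, at 2.41 (adjusted p = 7.9e-06) without replicate 1, the one that stood apart, and 1.37 (adjusted p = 5.2e-04) without replicate 2. At 24 h it had 5, 8 and 7 counts with DMSO (0.359, 0.533 and 0.539 CPM) and 19, 11 and 21 with tunicamycin (1.34, 0.819 and 1.14 CPM). It rose by 1.2 ± 0.41 (adjusted p = 0.018), with an adjusted p of 0.059 without replicate 1 of OCI-AML3 DMSO 24 h and 0.051 without replicate 1 of OCI-AML3 tunicamycin 24 h. In HEK293T cells HMOX1 stood at 16.4, 18.7 and 16.3 CPM with DMSO and 19.3, 18.5 and 17.99 CPM with tunicamycin, which overlap, a log2 fold change of 0.12 ± 0.17 (95% interval -0.20 to 0.45, adjusted p = 0.65). The effects in the lines at 24 h differed by -1.08 ± 0.44, which did not pass the test (adjusted p = 0.076).

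NQO1 (ENSG00000181019, chr16:69706996-69726668, minus strand), a quinone reductase used as a marker of NRF2 activity, stood at 53.8, 39.1 and 40.6 CPM with DMSO and 42.8, 42.1 and 40.0 CPM with tunicamycin at 4 h, with the highest value again in the DMSO replicate that stood apart. Its log2 fold change was -0.09 ± 0.10 (adjusted p = 0.51), and 0.08 without the libraries that stood apart. After 24 h it stood at 46.9, 46.0 and 45.7 CPM with DMSO and 50.7, 54.4 and 44.2 CPM with tunicamycin, where the log2 fold change was 0.10 ± 0.10 (95% interval -0.09 to 0.30, adjusted p = 0.40). The lowest of these treated values came from the tunicamycin replicate that stood apart, and without the libraries that stood apart NQO1 rose by 0.23 (adjusted p = 0.019). In HEK293T cells NQO1 went from 4.87, 5.997 and 5.21 CPM to 4.19, 3.27 and 3.83 CPM, without overlap, and fell by 0.51 ± 0.15 on the log2 scale (adjusted p = 0.018). That fall had an adjusted p of 0.085 without replicate 2 of HEK293T DMSO, 0.094 without replicate 2 of HEK293T tunicamycin and 0.071 with limma voom, the study's own method. The effects in the lines differed by -0.61 ± 0.18 (adjusted p = 0.017).

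The effect of tunicamycin in OCI-AML3 cells differed between 24 h and 4 h in 4 of the 10 genes (GCLC with the higher effect at 24 h, CHAC1, GSS and GPX4 with the lower), where 35.3% of all tested genes differed. Between the lines at 24 h it differed in 3 of the 10 (GSS with the higher effect in HEK293T, GCLM and NQO1 with the lower), where 26.8% of all tested genes did. Besides GSR, a difference that did not pass here passed in 11 of 31 alternatives for GCLC, 6 for HMOX1 and 4 for GPX4 between the lines, and in 12 for SRXN1 and 3 for TXNRD1 between the times. SRXN1, which fell in each comparison, had a difference between the lines of -0.03 ± 0.12 (95% interval -0.27 to 0.20, adjusted p = 0.89).

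Untreated and DMSO cells showed how far these genes moved without tunicamycin. None of the 10 passed the test between 4 h of DMSO and untreated cells, where edgeR called 0 of the 14012 genes (0%), with 1160 genes and 2 of the 10, CHAC1 and GCLM, at an unadjusted p under 0.05. DESeq2 called 19 genes there, and edgeR called 95 without a filter, 26 without replicate 1 of OCI-AML3 DMSO 4 h and 160 without both libraries that stood apart. None of the 10 was called in any of these. Between 24 h and 4 h of DMSO, 6 of the 10 changed, where 42.6% of all tested genes did. GCLM fell by 0.78 ± 0.11 (adjusted p = 4.7e-06), GCLC fell by 0.69 ± 0.11 (4.9e-05) and TXNRD1 fell by 0.46 ± 0.06 (3.2e-06) on the log2 scale. SRXN1 fell by 0.24 ± 0.08 (adjusted p = 0.025), GSS fell by 0.18 ± 0.07 (0.040) and CHAC1 rose by 0.65 ± 0.22 (0.021). GPX4, at 0.33 ± 0.14 (0.054), did not pass, but it passed in 10 of 31 alternatives, and without the libraries that stood apart it rose by 0.52 (adjusted p = 3.0e-05). NQO1, at 0.06 (0.68), rose by 0.22 without those libraries (adjusted p = 0.025) and without replicate 1 of OCI-AML3 DMSO 4 h alone (0.049). The calls of GSS, SRXN1 and CHAC1 in this comparison were lost in 10, 6 and 5 of the alternatives, with adjusted p up to 0.28, 0.12 and 0.14. Without the libraries that stood apart, GSS stood at -0.09 (adjusted p = 0.23) and SRXN1 at -0.18 (0.11) there.

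The ligase genes at 24 h rose against a DMSO control that had itself fallen. GCLC after 24 h of tunicamycin, at 15.6 to 18.6 CPM, lay within the range of untreated cells, 13.5 to 19.7 CPM, and the log2 fold change against untreated cells was -0.05 ± 0.11 (95% interval -0.26 to 0.16, adjusted p = 0.73). GCLM after 24 h of tunicamycin, at 25.7 to 29.7 CPM, lay below untreated cells, at 34.6 to 47.7 CPM, and the log2 fold change was -0.61 ± 0.10 (adjusted p = 2.2e-05). Against untreated cells, a comparison added after seeing the data, 4 of the 10 changed after 4 h of tunicamycin (CHAC1 and HMOX1 higher, TXNRD1 and SRXN1 lower), where 39.7% of all tested genes did. NQO1, at -0.22 (adjusted p = 0.086), fell by 0.19 without the libraries that stood apart (adjusted p = 0.025) and with only the groups compared (0.040). After 24 h, 7 of the 10 changed, where 60.0% did. CHAC1 (3.78 ± 0.15) and HMOX1 (1.21 ± 0.39) were higher on the log2 scale. GSS (-0.65 ± 0.07), TXNRD1 (-0.62 ± 0.06), GCLM, SRXN1 (-0.53 ± 0.08) and GPX4 (-0.37 ± 0.14) were lower, though the call of GPX4 was lost in 16 of 31 alternatives (adjusted p up to 0.37), DESeq2 among them, and GPX4 stood at -0.13 (adjusted p = 0.20) without the libraries that stood apart. The call of HMOX1 was lost in 1 (adjusted p = 0.060), without replicate 3 of untreated OCI-AML3. Untreated cells differ from the 24 h samples in time in culture as well as in the drug, and these cannot be told apart in this comparison.

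**Figure D3:**
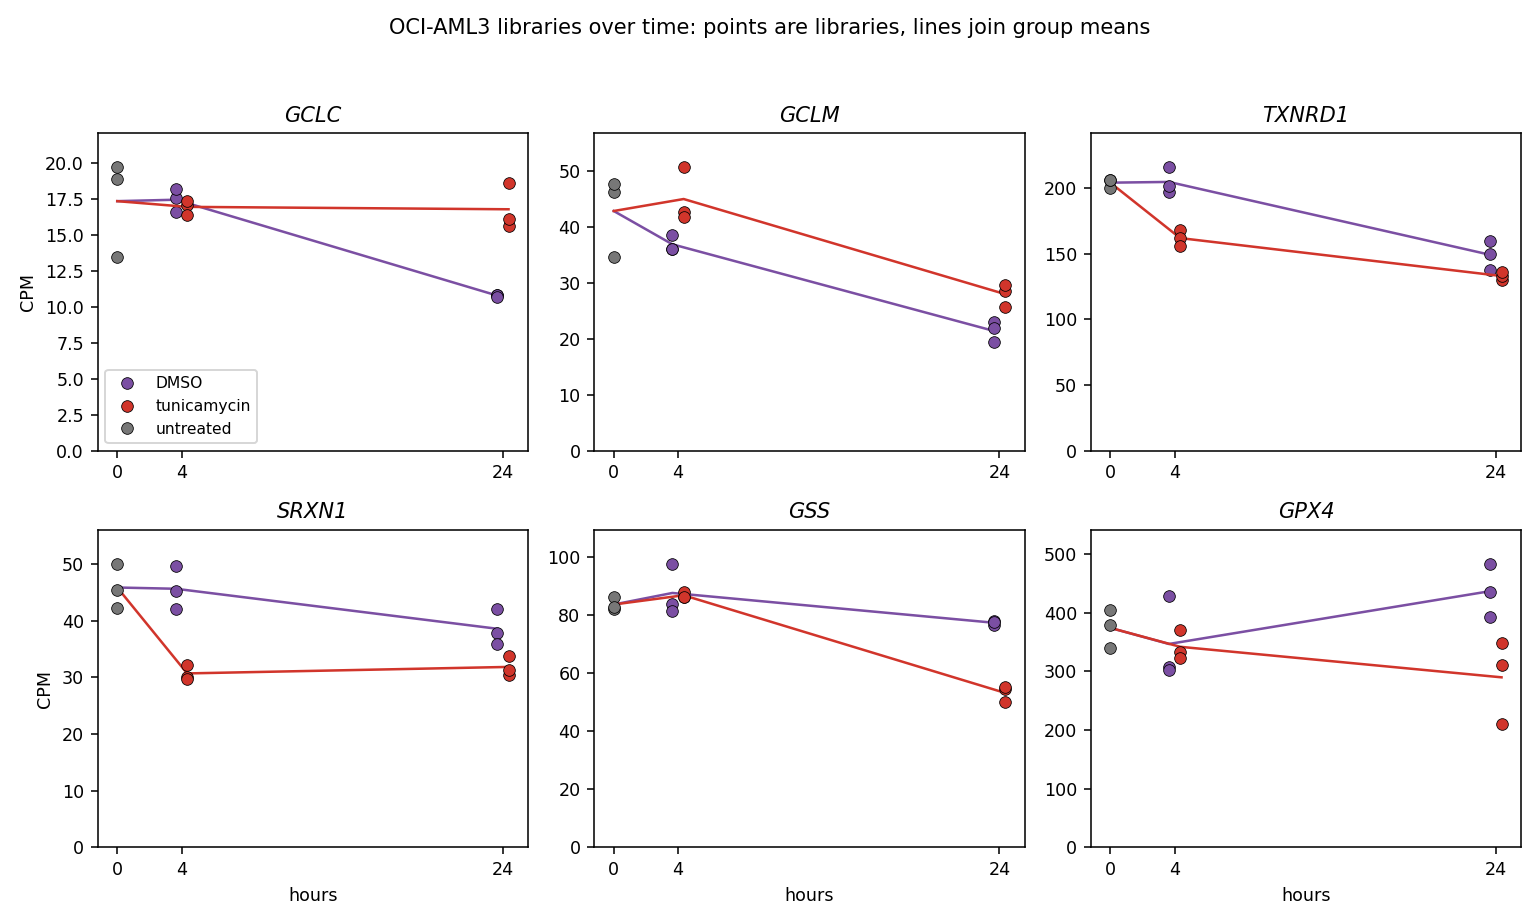
Level in CPM (vertical axes from 0) of 6 genes in OCI-AML3 cells at 0, 4 and 24 h (horizontal axis); points are libraries, purple with DMSO, red with tunicamycin and grey untreated, shifted sideways for legibility, and lines join group means (n = 3). GCLC with tunicamycin ends at 15.6 to 18.6 CPM, beside 10.7 to 10.8 CPM with DMSO and 13.5 to 19.7 CPM in untreated cells, while SRXN1 with tunicamycin is at 29.7 to 32.3 CPM by 4 h.

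Without tunicamycin the lines differed in all 10 genes, where 82.7% of all tested genes differed (DMSO 24 h). HMOX1 was 35.3-fold higher in HEK293T than in OCI-AML3 cells (log2 difference 5.14 ± 0.28, adjusted p = 4.1e-14), GCLC 4.44-fold (2.15 ± 0.11, 1.2e-14) and GCLM 2.40-fold (1.26 ± 0.10, 1.3e-10). TXNRD1 (0.51 ± 0.06) and SRXN1 (0.28 ± 0.08) were also higher in HEK293T. NQO1 was 8.62-fold lower in HEK293T (-3.11 ± 0.12, adjusted p = 8.9e-17) and GPX4 2.65-fold lower (-1.40 ± 0.14, 3.1e-09), followed by GSR (-0.90 ± 0.08), CHAC1 (-0.61 ± 0.21, overlapping libraries) and GSS (-0.52 ± 0.07). The call of CHAC1 was lost in 5 of 31 alternatives (adjusted p up to 0.20, without TMM) and that of SRXN1 in 1 (0.46, without a filter). The sizes depended on the scaling. Without TMM the median over all tested genes was 0.33 in place of -0.01, with 7303 genes higher and 4646 lower in HEK293T against 5676 and 5914, and GSS stood at -0.18, GSR at -0.55, TXNRD1 at 0.86 and SRXN1 at 0.62. Each of the 10 kept its direction under all alternatives. NQO1 and HMOX1, both NRF2 targets, thus differed in opposite directions.

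Divided by the length of all annotated exons, GPX4 led the 10 genes with DMSO at 24 h, at 237 ± 24.6 CPM per kb (SD, n = 3) in OCI-AML3 and 89.8 ± 3.99 in HEK293T. CHAC1 was number 8 of 10 in OCI-AML3 with DMSO at 24 h, at 1.97 ± 0.487 CPM per kb, above GCLC at 1.25 ± 0.0075 and HMOX1 at 0.207 ± 0.044. After 4 h of tunicamycin CHAC1 was number 2 of 10, at 74.6 ± 2.87 CPM per kb, below GPX4 at 186 ± 13.7 and above GSR at 36.6 ± 2.94. With the length of the MANE Select transcript in place of all exons, CHAC1 kept rank 2 after 4 h of tunicamycin and took rank 9 in place of 8 with DMSO at 24 h.

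Genes around the 10 were counted in 8 lists of 156 symbols, of which 142 were tested. They were examined only in the edgeR fit over all 21 libraries, including those that stood apart. Their counts stand beside 18.5% of all tested genes that rose and 18.9% that fell at 4 h, 23.5% and 27.7% at 24 h, and 12.6% and 13.1% in HEK293T cells. SLC7A11, SLC3A2 and CTH, which supply cystine and cysteine, rose in all 3 comparisons. Of 18 tested genes of glutathione supply, export and breakdown, 7 rose and 0 fell at 4 h, 7 rose and 5 fell at 24 h, and 5 rose and 0 fell in HEK293T cells. The share that fell at 24 h, 27.8%, was near that of all tested genes. SLC7A11, the cystine transporter, rose by 4.91 at 4 h, 3.78 at 24 h and 2.62 in HEK293T cells on the log2 scale (it is also counted among the NRF2 targets), and its partner SLC3A2 rose by 2.23, 1.35 and 2.37. CTH, which makes cysteine from cystathionine, rose by 3.18, 0.73 and 2.79. CHAC2, another cytosolic glutathione-degrading enzyme, fell by 0.55 at 24 h (adjusted p = 0.016). The medians of this list were 0.12, 0.12 and 0.12.

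Of 24 tested genes listed as glutathione-using enzymes, 2 rose and 3 fell at 4 h. At 24 h 1 rose and 10 fell (median -0.14), and 1 rose and 2 fell in HEK293T cells. At 24 h this was 4.17% higher and 41.7% lower, against 23.5% and 27.7% of all tested genes. GLO1, which clears methylglyoxal, fell by 0.77 at 24 h and by 0.35 in HEK293T cells on the log2 scale. The gene that rose at 24 h was GPX8, a peroxidase of the endoplasmic reticulum, at 0 counts in the 24 h DMSO libraries of OCI-AML3 and at most 12 counts with tunicamycin, and at 34.7 ± 3.46 and 66.7 ± 2.24 CPM in HEK293T cells. Of 15 thioredoxin and peroxiredoxin genes, 2 rose and 4 fell at 4 h, 3 rose and 7 fell at 24 h, and 3 rose and 3 fell in HEK293T cells. PRDX1, a peroxiredoxin and NRF2 target, fell by 1.28, 0.77 and 0.53, and TXNIP, which binds thioredoxin, rose by 1.51, 0.49 and 0.62.

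Of 32 tested genes among other NRF2 targets, 8 rose and 6 fell at 4 h, 10 rose and 12 fell at 24 h, and 6 rose and 9 fell in HEK293T cells, with medians of -0.00079, -0.16 and -0.18. At 24 h this was 31.2% higher and 37.5% lower, against 23.5% and 27.7% of all tested genes. UGDH, which makes UDP-glucuronate, rose by 1.57, 1.94 and 0.97, and ABCC2, an export pump, rose by 2.32 at 24 h. The value of ABCC2 rests on at most 6 counts in a DMSO library and 36 in a tunicamycin library, close to the limit of detection. PIR fell by 0.90 at 24 h and by 1.17 in HEK293T cells. Among 17 regulators of NRF2 and their partners, 5 rose and 7 fell at 4 h, 4 rose and 4 fell at 24 h, and 3 rose and 5 fell in HEK293T cells. NFE2L2, the gene of NRF2, rose by 0.52 ± 0.09, 0.62 ± 0.10 and 0.42 ± 0.09 (SE), and BACH1, a repressor that competes at AREs, rose by 0.69, 0.56 and 0.54. MAFK, a small MAF partner of NRF2, fell by 0.98 at 4 h (adjusted p = 4.6e-07) and by 0.41 in HEK293T cells (0.014). RBX1, a subunit of the ubiquitin ligase that KEAP1 serves, fell by 0.70 at 4 h (6.4e-05) and by 0.76 at 24 h (1.9e-05), and PGAM5, a KEAP1-binding phosphatase, fell by 0.66 at 24 h (9.1e-06) and by 0.35 in HEK293T cells (0.0089).

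Of 21 genes of heme and iron handling, 3 rose and 7 fell at 4 h, 6 rose and 11 fell at 24 h, and 3 rose and 5 fell in HEK293T cells, where 23.5% of all tested genes rose and 27.7% fell at 24 h. FTH1, ferritin heavy chain, rose by 0.22, 0.72 and 0.93. HMOX2, the constitutive heme oxygenase, fell by 0.46, 0.41 and 0.44. Of 9 genes of selenoprotein synthesis, on which GPX4 and TXNRD1 depend, 4 rose and 1 fell at 4 h, 4 rose and 4 fell at 24 h, and 3 rose and 1 fell in HEK293T cells, and SARS1, seryl-tRNA synthetase, rose by 0.97, 0.71 and 0.97. All 16 genes of an ATF4 and CHOP list rose in each of the 3 comparisons, with medians of 2.42, 1.19 and 1.91. That list was chosen with results of these samples known and is not independent evidence of its direction.

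**Figure D4:**
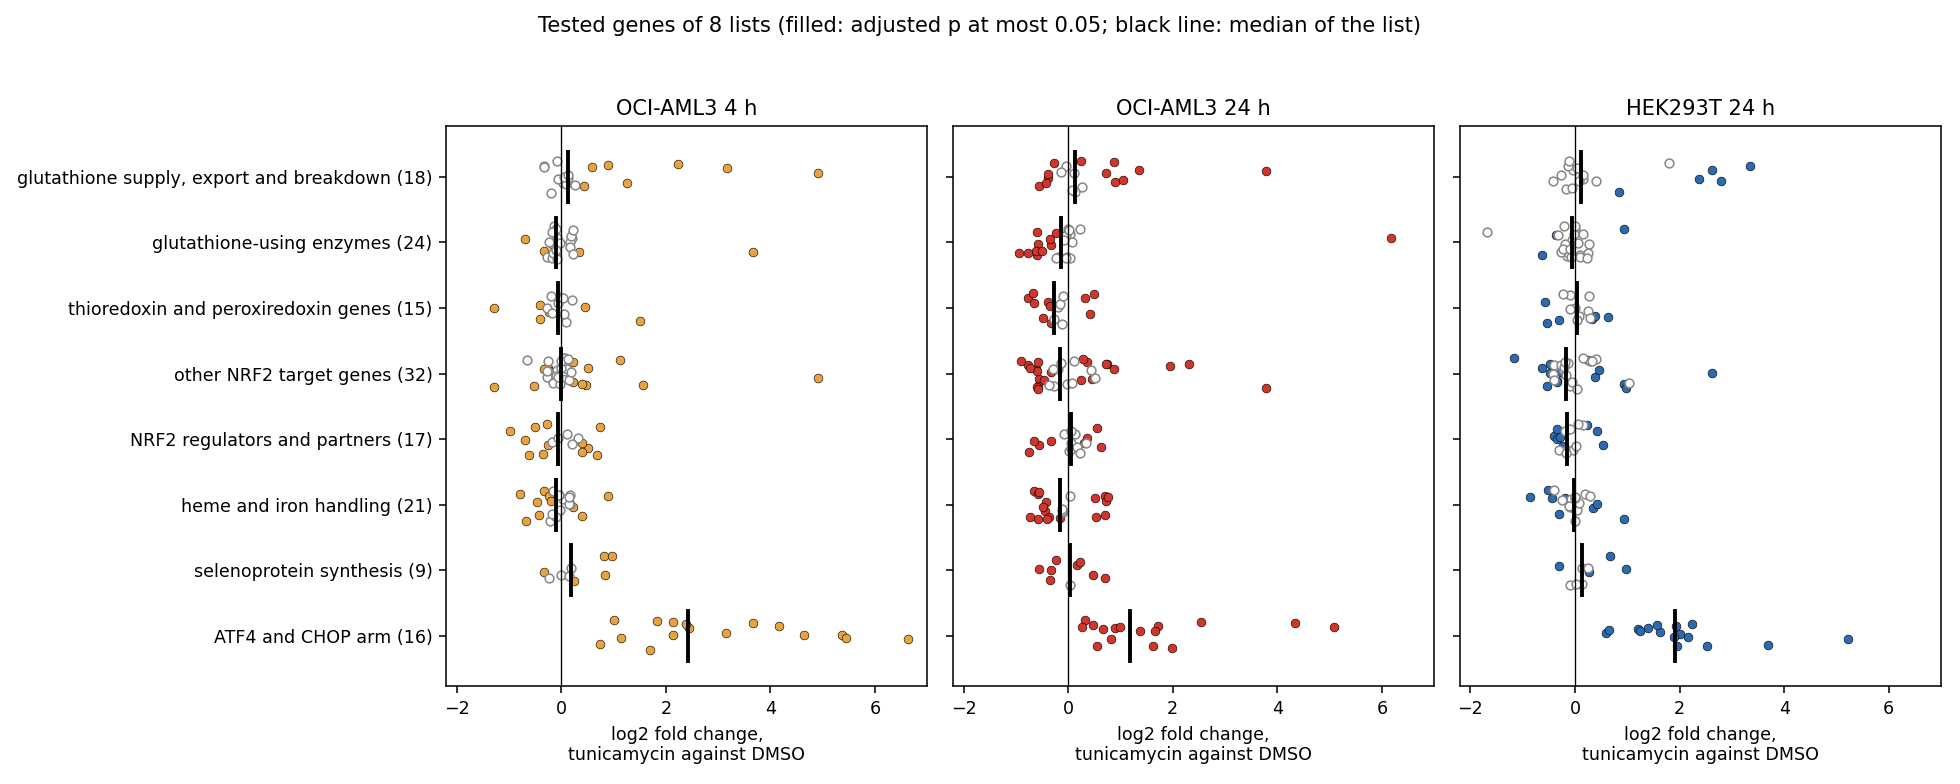
Log2 fold change of tunicamycin against DMSO (horizontal axes) for the tested genes of 8 lists (rows, number of genes in brackets) in the 3 comparisons (panels); filled points have an adjusted p of at most 0.05 and black lines are list medians. The fitted value of GPX8 at OCI-AML3 24 h rests on DMSO libraries at 0 counts and is no measure of its fold. The ATF4 and CHOP medians lie at 2.42, 1.19 and 1.91, whereas those of the other 7 lists lie between -0.28 and 0.19.

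The genes whose log2 levels were most like those of CHAC1 over the 15 OCI-AML3 libraries were HERPUD1 (Pearson 0.996), ADM2 (0.994) and TMEM39A (0.988). By Spearman correlation over the same libraries they were TRIB3, SHMT2 and HOXB9 (0.954, 0.946 and 0.943). GCLC was most like ATMIN (0.955), GCLM most like R3HCC1L (0.973) and HMOX1 most like TTC39B (0.926), and CHAC1 and HMOX1 themselves had a correlation of 0.84. These libraries come from 5 groups of replicates, so the correlations mostly follow the group means.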

How the data were processed

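The authors trimmed paired reads of polyadenylated RNA, aligned them with STAR and quantified genes with RSEM against GRCh38, and deposited RSEM expected counts for 60671 Ensembl genes. The use of strand in counting is not given in the sources used here. Some exon bases of GCLC, GSS and NQO1 are annotated on the opposite strand too, and GCLC, like SRXN1, shares others with a gene on its own strand, so its reads could be split between them. Every column was matched to 1 sample. Expected counts were rounded to whole numbers, and genes with 1 CPM or more in at least 8 libraries were kept. The study states a filter of this kind, worded as a read count per sequenced reads but labelled TPM, so the genes it kept need not be the same. CPM (counts-per-million) values were scaled by TMM. The study used limma voom. Here edgeR 4.0.16 (quasi-likelihood test, R 4.3.3) was fitted to all 14012 genes over the 7 groups, with Benjamini-Hochberg adjustment over those genes, because the deposited values are counts. Genes are said to rise or fall where the adjusted p was 0.05 or less. SE is the size of the log2 fold change over the square root of F. In a simulation of the OCI-AML3 4 h comparison with 200 of 14012 genes changed, 94% of changes of 1 and 100% of changes of 2 on the log2 scale were recovered, with 3 false calls. It changed no gene at the lowest levels, held no library that stood apart and had far fewer changed genes than were called here. Changes smaller than 1 were not simulated, so their recovery is not known. Alternatives were limma voom (limma 3.58.1), DESeq2 1.42.0, other scalings and filters, a replicate block and each library left out, 31 in all. Gene positions are from GENCODE 44.

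The members and lists were chosen with earlier results of these data known. All 10 members are named, and of each list at most the 3 called genes farthest from 0 in each direction of a comparison. Values in the other comparisons are given for some of these list genes only. Of 156 list symbols, 2 had no match in the table (GSTT1, and HRG1, another name of SLC48A1, which was listed too) and 12 did not pass the filter. The 95% intervals come from the SE with a normal multiplier and include the spread between libraries, while the floors cover counting error only. These intervals are somewhat narrower than the quasi-likelihood test would give.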

Additional observations from a re-analysis of the deposited data

Results flagged for a closer look

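The effect of tunicamycin in OCI-AML3 cells differed between 24 h and 4 h by the interaction test in 4 of the genes. The difference on the log2 scale was -2.24 for CHAC1, 0.69 for GCLC, -0.53 for GSS and -0.57 for GPX4. The effect at 24 h differed between HEK293T and OCI-AML3 cells in 3 of the genes, by -0.49 for GCLM, 0.65 for GSS and -0.61 for NQO1. The call of GPX4 was lost in 7 of 31 alternatives and that of NQO1 in 2.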

How the results depend on the processing

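Of 31 alternatives, none changed the calls of CHAC1 in the 3 tunicamycin comparisons (5.68 to 6.10 at 4 h, 3.53 to 3.87 at 24 h and 3.69 to 3.92 in HEK293T cells, log2), of GCLC, GCLM, GSS and GPX4 at 24 h, or of HMOX1, TXNRD1 and SRXN1 at 4 h in OCI-AML3 cells. No scaling moved the median of all genes by over 0.1 (log2) in the 3 tunicamycin comparisons. Without TMM it moved from 0.02 to -0.09 in the difference between the lines, from -0.02 to -0.14 between the DMSO times and from -0.01 to 0.33 between the lines with DMSO (0.11 there with 1 CPM in 3 libraries). Without TMM the genes higher and lower numbered 2776 and 2164 against 2111 and 2842 for the difference in time, 1516 and 2178 against 2232 and 1529 for the difference between the lines, and 2131 and 4611 against 2944 and 3026 between the DMSO times. At OCI-AML3 24 h they numbered 4005 and 3196 without TMM and 3638 and 3538 with DESeq2, against 3286 and 3877. In HEK293T cells at 24 h they numbered 1533 and 2264 without TMM, against 1771 and 1835. Changes of sign were limited to values near 0 that did not pass the test, and their cause was not tested. The GSR difference between 24 h and 4 h was 0.016 with the DESeq2 Wald test, 0.016 with DESeq2 size factors, 0.073 without TMM, 0.012 with 1 CPM in 3 libraries, 0.019 with only the groups compared and 0.011 without the 10 most abundant genes. The TXNRD1 difference between the lines was -0.0063 without TMM, and GSS at 4 h was 0.0010 with only the groups compared and 0.0011 without the 10 most abundant genes. Without the libraries that stood apart, chosen after seeing the data, values at 4 h were 0.087 for GSS, 0.015 for GSR, 0.18 for GPX4 and 0.079 for NQO1, and the CHAC1 difference between the lines was -0.056. With 1 library left out in turn, values at 4 h ran from -0.062 to 0.087 for GSS, -0.14 to 0.014 for GSR, -0.11 to 0.18 for GPX4 and -0.18 to 0.079 for NQO1, GSR at 24 h ran from -0.091 to 0.0072, the GSR difference in time from -0.060 to 0.063, and the differences between the lines from -0.11 to 0.23 for CHAC1 and -0.15 to 0.014 for SRXN1.

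Counts of the 10 genes moved as follows. Genes that rose at 4 h numbered 2 without TMM and 2 without a filter, and genes that fell in HEK293T cells 2 with limma voom. Genes that fell at 24 h numbered 3 with DESeq2, with its size factors, without a filter, with 1 CPM in 3 libraries and without the 10 most abundant genes, 2 without TMM, 2 with only the groups compared and 2 without the libraries that stood apart, where 5 rose. Genes that rose in HEK293T cells numbered 1 without TMM and 1 without a filter. Genes with a higher effect at 24 h than at 4 h numbered 3 with DESeq2 and without TMM, and 2 with DESeq2 size factors, with 1 CPM in 3 libraries and without the 10 most abundant genes. Genes with a lower effect at 24 h numbered 2 with only the groups compared. Genes with a lower effect in HEK293T cells numbered 1 with limma voom, 5 with DESeq2, without TMM and with only the groups compared, 4 with DESeq2 size factors, with 1 CPM in 3 libraries and without the 10 most abundant genes, and 3 without the libraries that stood apart, and those with a higher effect 2 with limma voom and without a filter. Between 24 h and 4 h of DMSO, genes that rose numbered 2 with DESeq2, with its size factors and without a filter, 0 with only the groups compared and 3 without the libraries that stood apart, and genes that fell 4 with DESeq2, without a filter and with the replicate block, and 3 with DESeq2 size factors, with only the groups compared and without the libraries that stood apart. Against untreated cells, 3 fell after 4 h of tunicamycin with only the groups compared and without the libraries that stood apart. After 24 h of tunicamycin, 4 fell with DESeq2, with its size factors, with 1 CPM in 3 libraries and with only the groups compared. The number was also 4 without the 10 most abundant genes and without the libraries that stood apart. Between the lines with DMSO, 4 were lower in HEK293T cells without TMM and with the replicate block, and 4 higher without a filter. With 1 library left out, 2 to 3 rose at 4 h, 3 to 4 rose, 2 to 4 fell and 1 to 2 passed both thresholds at 24 h, 1 to 2 rose and 1 to 3 fell in HEK293T cells, 1 to 2 had a higher and 2 to 3 a lower effect at 24 h than at 4 h, 1 to 2 had a higher and 1 to 5 a lower effect in HEK293T cells, 0 to 3 rose and 3 to 5 fell between the DMSO times, 1 to 2 rose and 4 to 5 fell against untreated cells after 24 h of tunicamycin, and 4 to 5 were lower in HEK293T cells with DMSO.

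Samples of the same replicate number had correlations of their deviations from -0.14 to 0.13. The highest with a sample of another number ran from -0.04 to 0.18. These ranges overlap, so whether samples of a number were paired could not be told from them. With the number as a replicate block, 2 genes rose between the DMSO times, and the calls of GSS there (adjusted p = 0.053) and of the CHAC1 difference between the lines with DMSO (adjusted p = 0.069) were lost, with no other call of the 10 lost. Over all tested genes, those past both thresholds numbered 1401 without a filter against 885 at 24 h and 514 against 298 in HEK293T cells. HMOX1 had at most 41 counts in an OCI-AML3 library.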
